A study of Mus musculus with 18 samples.

Results

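Glycolysis genes in mouse cortical neural progenitor cells are described here across 18 RNA-seq libraries in 3 groups. The 10 symbols were taken by name from the expression table: Slc2a1, Hk2, Pfkp, Aldoa, Gapdh, Pgk1, Eno1, Pkm, Ldha and Pdk1. They matched 11 of its 55573 gene records, because Aldoa names 2 records that lie next to each other on chromosome 7. The main Aldoa record is ENSMUSG00000030695.16, and the other, ENSMUSG00000114515.2, is called the upstream Aldoa record. All 11 passed the filter on low values, at least 1 TPM (a length-corrected share of transcripts) in at least 6 libraries and are among the 15216 records tested.

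Glycolysis splits glucose to pyruvate in the cytosol and yields ATP without oxygen. Slc2a1 encodes the glucose transporter GLUT1, Hk2 a hexokinase that traps glucose as its phosphate, and Pfkp a phosphofructokinase at the committed step. Aldoa, Gapdh, Pgk1, Eno1 and Pkm encode the later enzymes aldolase A, glyceraldehyde-3-phosphate dehydrogenase, phosphoglycerate kinase, enolase and pyruvate kinase. Ldha encodes a lactate dehydrogenase subunit, and Pdk1 a kinase that inhibits pyruvate dehydrogenase and so slows the conversion of pyruvate to acetyl-CoA. Dividing neural progenitors are known for active glycolysis, and several of these genes are textbook targets of the hypoxia-inducible factor HIF-1.

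The Upf2 Trp53 Cre group held Upf2fl/fl Trp53fl/fl cells given the adeno-associated virus AAV9-Cre, and the Upf2 Cre group held Upf2fl/fl cells given the same virus. The Upf2 mock group held Upf2fl/fl cells given medium alone. Each group had 6 libraries, numbered 3, 4, 5, 6, 8 and 9, and all cells were C57BL/6 cortical progenitors harvested 72 h after infection. Nonsense-mediated mRNA decay (NMD) is a pathway that degrades messages whose stop codon comes too early, and it needs the Upf2 protein. Trp53 encodes the tumour suppressor p53. All 3 groups carry floxed Upf2 alleles, no group had virus without Cre, and doubly floxed cells without Cre were not analysed here, so virus goes with Cre and the Trp53 genotype goes with the line. The labels call the libraries biological replicates and do not say whether they came from separate embryos, so the p-values measure only the spread between these cultures.

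The promoter sequences of 4 members are shown first, because these known HIF-1 targets are, besides both Aldoa records, the members that passed the test in Upf2 Cre against mock. The windows run from 250 bases before to 50 after the RefSeq start on GRCm38.p6, the build mm10, and all 4 lie on the plus strand, written 5′ to 3′. Capitals mark the HIF core motifs ACGTG and GCGTG on either strand (CACGT and CACGC are their reverse complements). The windows are chrX:106186850-106187149 for Pgk1, chr7:46845554-46845853 for Ldha, chr2:71872974-71873273 for Pdk1 and chr4:119108495-119108794 for Slc2a1.
Pgk1: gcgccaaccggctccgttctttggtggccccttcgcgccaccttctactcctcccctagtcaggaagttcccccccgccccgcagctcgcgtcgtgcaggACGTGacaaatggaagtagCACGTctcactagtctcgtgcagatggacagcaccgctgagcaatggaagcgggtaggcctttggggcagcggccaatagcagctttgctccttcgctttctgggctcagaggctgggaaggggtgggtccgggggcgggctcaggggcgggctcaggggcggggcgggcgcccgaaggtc
Ldha: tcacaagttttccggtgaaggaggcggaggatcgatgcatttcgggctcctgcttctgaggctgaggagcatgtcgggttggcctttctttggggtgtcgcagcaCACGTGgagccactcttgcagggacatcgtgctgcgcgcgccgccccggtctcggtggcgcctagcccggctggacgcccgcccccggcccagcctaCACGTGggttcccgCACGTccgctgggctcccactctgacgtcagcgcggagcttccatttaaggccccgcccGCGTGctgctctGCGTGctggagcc
Pdk1: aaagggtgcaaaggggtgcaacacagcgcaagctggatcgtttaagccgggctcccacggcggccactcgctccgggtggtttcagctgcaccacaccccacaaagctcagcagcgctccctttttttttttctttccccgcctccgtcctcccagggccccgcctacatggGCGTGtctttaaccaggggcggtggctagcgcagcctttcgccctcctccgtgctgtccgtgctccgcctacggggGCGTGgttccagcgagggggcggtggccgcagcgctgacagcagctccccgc
Slc2a1: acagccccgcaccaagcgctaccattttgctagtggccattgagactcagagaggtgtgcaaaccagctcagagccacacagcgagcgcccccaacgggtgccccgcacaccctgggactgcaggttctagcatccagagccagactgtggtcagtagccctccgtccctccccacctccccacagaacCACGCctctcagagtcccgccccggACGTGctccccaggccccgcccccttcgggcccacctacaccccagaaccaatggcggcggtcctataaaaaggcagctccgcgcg
Counted on both strands, the motifs occur 2 times in the Pgk1 window, 7 times in Ldha, 2 times in Pdk1 and 2 times in Slc2a1. Each of the 2 CACGTG in the printed Ldha window counts on both strands. Ldha and Pdk1 each have another RefSeq window, not printed, with 2 motifs in that of Ldha and 0 in that of Pdk1. All 10 symbols had a RefSeq window, and all 10 had a HIF core motif in at least 1 of theirs, in 14 of 17 windows. Of the 32851 windows in the RefSeq table, 43.8% held ACGTG or GCGTG and 7.15% held CACGTG, which among the members occurs in Ldha alone. A match describes letters in a window and is not a bound site.

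The 2 Aldoa records differ in what they encode. In GENCODE M21 on mm10, the main record lies on chromosome 7 from 126795234 to 126800751, minus strand, and the upstream record from 126800790 to 126809108, with 38 bases between them. One of the 2 transcripts of the upstream record, ENSMUST00000153686.1, is annotated as an NMD target. It has 4 exons and 799 bases, and its coding sequence stops in exon 2 after 63 codons, 169 bases before the last exon junction. A stop codon placed before the last junction is a known feature of NMD targets. The spliced coding sequence, 192 bases on the minus strand, is shown with its stop codon in capitals, since this record had the highest log2 difference of the members in both comparisons with mock.
Upstream Aldoa record: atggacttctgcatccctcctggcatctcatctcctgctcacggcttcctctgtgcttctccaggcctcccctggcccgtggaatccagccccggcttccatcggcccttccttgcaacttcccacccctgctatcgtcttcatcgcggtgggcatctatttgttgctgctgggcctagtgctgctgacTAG

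**Figure D1:**
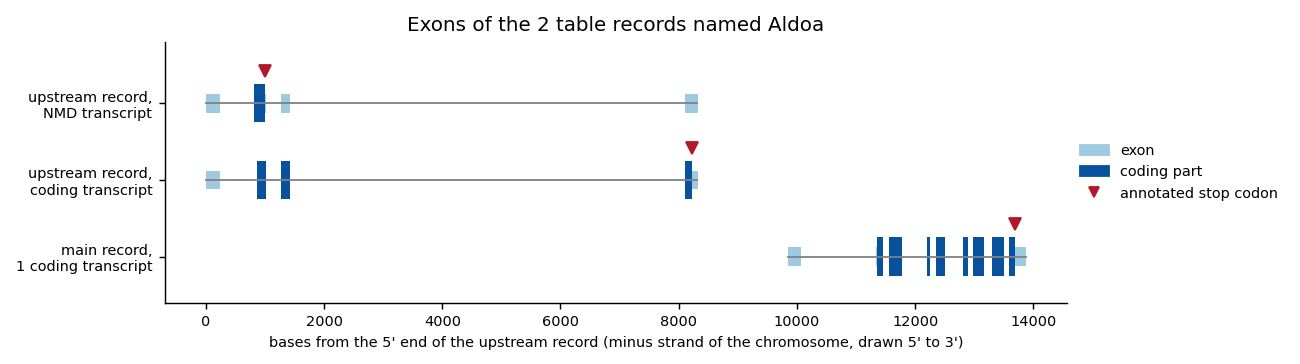
Exons of the upstream Aldoa record (top and middle rows, 2 transcripts) and of 1 coding transcript of the main record (bottom), by distance in bases from the 5′ end of the upstream record; dark blocks are coding parts and red triangles stop codons. In the NMD transcript the stop lies in the second of 4 exons, and in the other upstream transcript in the last exon.

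Each library sums to 1000000 TPM, a unit from which sequencing depth cannot be read, so depth is unknown. The table's check of the targeted genes is mixed: Trp53 averaged 16.5 ± 1.69 TPM in Upf2 Trp53 Cre, against 138 ± 35.0 in Upf2 Cre and 104 ± 18.2 in mock (SD, n = 6 each). Upf2 averaged 33.8 ± 9.03 TPM in Upf2 Trp53 Cre, against 20.2 ± 4.82 in Upf2 Cre and 11.1 ± 2.98 in mock. This goes against its label as a deleted gene. A gene-level value also counts exons outside a floxed segment, and the cause of the higher values in the Cre groups was not tested. The libraries numbered 3 of Upf2 Cre and mock stood apart, with median correlations with the rest of their group of 0.905 and 0.916, against 0.950 to 0.980 for the 15 libraries with other numbers. That of Upf2 Trp53 Cre, at 0.951, did not stand apart by this measure, but its Olig2 level of 430 TPM lay below the 710 to 1101 TPM of its group. Members and list counts are therefore also given without the 3 libraries numbered 3 where that changes them, a choice made after seeing the data. In Upf2 Cre replicate 6 a single small RNA gene, Gm23935, held 14.1% of all TPM, which lowers every other value of that library. Radial glia markers were present, with summed levels of 4773 to 10772 TPM in Upf2 Trp53 Cre, 3575 to 10397 in Upf2 Cre and 5116 to 13827 in mock. Oligodendrocyte lineage markers summed to 1122 to 3464, 1394 to 4162 and 1524 to 3352 TPM in the same order of groups, astrocyte markers to 482 to 1166 TPM and neuron markers to 202 to 512 TPM over all libraries. Microglia and vascular markers stayed at no more than 1.13 and 5.26 TPM in sum.

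The members' summed share of all TPM overlapped between the 3 groups, at 0.926% ± 0.115 in Upf2 Trp53 Cre, 0.904% ± 0.0948 in Upf2 Cre and 0.935% ± 0.203 in mock (SD, n = 6 each). On the TPM scale, which is per transcript length, Gapdh was the highest member in every group, above the next member in 6 of 6 libraries. In Upf2 Trp53 Cre it was followed by Eno1, Pkm, Pgk1 and Aldoa, whose ranges over libraries overlapped at each step, then by Ldha. In Upf2 Cre, Pgk1 stood below Eno1, Aldoa and Pkm, and Pkm was above Pgk1 in 5 of 6 libraries. In mock, Pgk1 was second, and its range overlapped that of Eno1. Slc2a1, Hk2, Pfkp, Pdk1 and the upstream Aldoa record stayed below 200 TPM in every library.

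**Figure D2:**
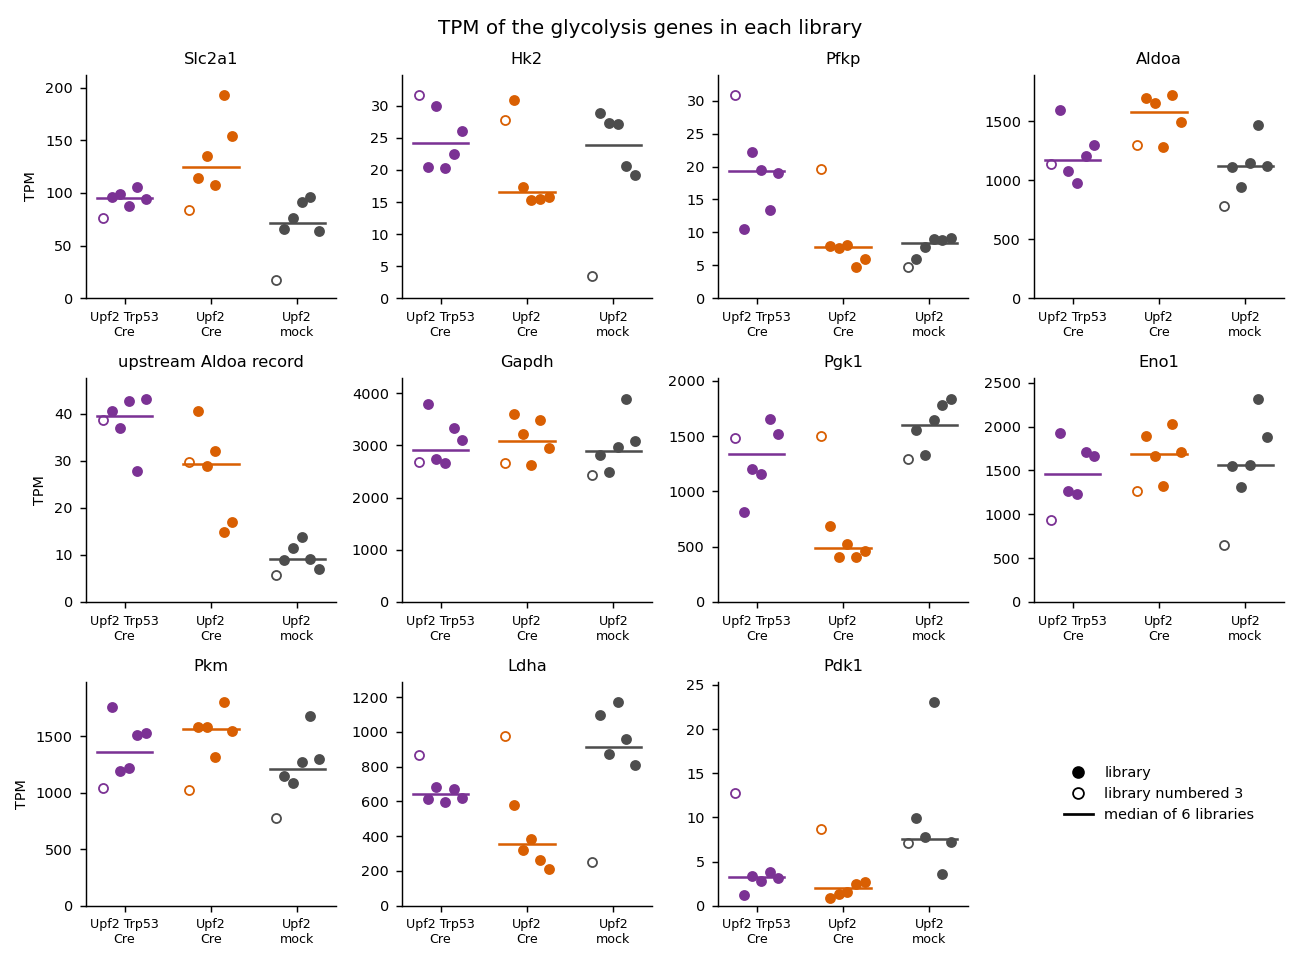
TPM of each of the 11 records in every library, Upf2 Trp53 Cre on the left, Upf2 Cre in the middle and Upf2 mock on the right; points are libraries, open points those numbered 3, and lines medians of 6. Upf2 Cre libraries lie low for Pgk1, at 410 to 689 TPM apart from replicate 3 at 1497 TPM, and the upstream Aldoa record is higher in all Cre libraries than in mock.

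Upf2 Cre against Upf2 mock compares cells given Cre with untreated cells of the same line. In it the pathway did not move as a unit. Slc2a1 and both Aldoa records rose, Pgk1, Ldha and Pdk1 fell, and Hk2, Pfkp, Gapdh, Eno1 and Pkm did not pass the test. Thus 3 of 11 records rose, where 16.5% of all tested genes did, and 3 fell, where 24.2% did (limma, Benjamini-Hochberg adjusted p below 0.05). The upstream Aldoa record alone did not overlap between the groups, 1 of 11 against 5.86% of all genes in either direction. These counts lie near the background. The median log2 difference of the members was 0.12 and that of all tested genes −0.12. With the libraries numbered 3 left out, the counts were again 3 and 3, against 25.9% and 33.8% of all genes.

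Upf2 Trp53 Cre against Upf2 mock differs by Cre, virus and the Trp53 genotype together. Pfkp and the upstream Aldoa record rose, no member fell, and the other 9 records did not pass the test. Across all tested genes 10.4% rose, and 1.09% did the opposite. The 2 records that rose were also the 2 that did not overlap between the groups, where 7.92% of all genes did not, and 3 records had an unadjusted p below 0.05. The median was 0.16 for the members and 0.08 for all genes. Leaving out the libraries numbered 3, 2 members rose and 2 fell, Ldha and Pdk1, beside 18.9% rising and 4.5% falling among all genes.

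Upf2 Trp53 Cre against Upf2 Cre compares the doubly floxed with the singly floxed line, both given Cre. Pfkp and Pgk1 rose, where 11.8% of all genes did, no member fell, where 2.46% did, and 4 records had an unadjusted p below 0.05. No record's groups failed to overlap, against 2.72% of all genes. The members' median of 0.33 stood beside 0.25 over all genes. When the libraries numbered 3 were left out, 3 members rose and 1 fell, beside 28.2% rising and 8.81% falling among all genes. Both this comparison and the first use the Upf2 Cre libraries, so opposite signs in them are not independent.

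The comparisons depend on how libraries are scaled. After median-ratio scaling the median of all genes was −0.03, −0.06 and 0.02 in the 3 comparisons in the order above, so that it moved by more than 0.1 from the deposited TPM in both comparisons of Upf2 Trp53 Cre. Of the genes called, 40.5%, 90.5% and 82.7% rose on TPM as deposited, 49.2%, 66.9% and 29.3% after median-ratio scaling, and 48.2%, 69.3% and 47.7% after quantile normalization. Relative to the median of all genes, Pgk1 was 1.28 lower and Slc2a1 1.17 higher in Upf2 Cre against mock, Pfkp 1.12 higher in Upf2 Trp53 Cre against mock, and Pgk1 0.86 and Pfkp 0.83 higher between the Cre groups.

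**Figure D3:**
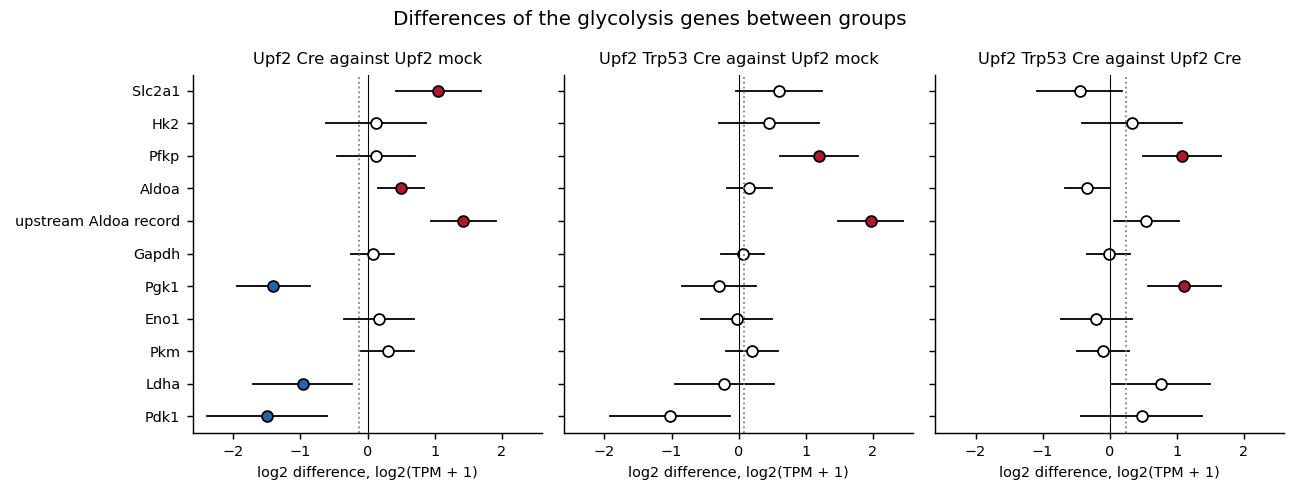
Log2 differences of log2(TPM + 1) of the 11 records in the 3 comparisons, first-named group over the second; bars are 95% confidence intervals, filled red or blue points passed the test upward or downward, and the dotted line is the median of all 15216 tested genes. Pgk1, at −1.41, Ldha, at −0.97, and Pdk1 lie to the left in Upf2 Cre against mock, and the upstream Aldoa record lies to the right in both comparisons with mock.

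Glucose uptake: Slc2a1 (chromosome 4, 119108711 to 119137983) was highest in the Upf2 Cre libraries. It ranged from 75.8 to 105 TPM with a median of 95.2 in Upf2 Trp53 Cre, from 83.7 to 193 with a median of 125 in Upf2 Cre, and from 17.5 to 96.2 with a median of 71.0 in mock. The groups overlapped in all pairs, the Upf2 Cre library numbered 3 being its lowest, and the mock library numbered 3, at 17.5 TPM, lay far below the other mock libraries, which began at 63.5 TPM. The log2 difference was 1.05 ± 0.30 (SE) in Upf2 Cre against mock (by limma, adjusted p = 0.012), 0.60 in Upf2 Trp53 Cre against mock (adjusted p = 0.23) and −0.45 in Upf2 Trp53 Cre against Upf2 Cre (adjusted p = 0.29). Without the libraries numbered 3, Slc2a1 spanned 108 to 193 TPM in Upf2 Cre and 63.5 to 96.2 TPM in mock. These groups of 5 no longer overlapped. The overlap had come from the Upf2 Cre library left out, a choice made after seeing the data, so the separation is no test. The share of all genes that separate at this size was not counted. The differences were then 0.82 (adjusted p = 4.1e-04), 0.31 (0.17) and −0.51 (0.020), and Slc2a1 fell in Upf2 Trp53 Cre against Upf2 Cre.

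Hk2 (chromosome 6, 82725025 to 82774454) ranged from 20.2 to 31.7 TPM in Upf2 Trp53 Cre, 15.3 to 30.9 in Upf2 Cre and 3.40 to 28.9 in mock, with medians of 24.3, 16.5 and 23.8. The ranges overlapped throughout, and the mock library numbered 3 again held the lowest value. Hk2 passed no test, with log2 differences of 0.12, 0.45 and 0.33 in the 3 comparisons in the order above (limma adjusted p = 0.80, 0.47 and 0.52). Its difference without the libraries numbered 3 in Upf2 Cre against mock was −0.40 (adjusted p = 0.083).

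The committed step: Pfkp (chromosome 13, 6579768 to 6648777) was high in the doubly floxed cells. It had 10.5 to 30.9 TPM with a median of 19.3 in Upf2 Trp53 Cre, 4.69 to 19.7 with a median of 7.82 in Upf2 Cre, and 4.66 to 9.18 with a median of 8.32 in mock. Every Upf2 Trp53 Cre library lay above every mock library, while the Upf2 Cre library numbered 3, at 19.7 TPM, lay among the Upf2 Trp53 Cre values. Pfkp rose by log2 1.20 ± 0.28 (SE) in Upf2 Trp53 Cre against mock (limma adjusted p = 0.0065) and by 1.08 ± 0.28 against Upf2 Cre (adjusted p = 0.020). It did not pass in Upf2 Cre against mock, at 0.12 (adjusted p = 0.74).

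The Pfkp rise against Upf2 Cre did not pass after median-ratio scaling (0.82, adjusted p = 0.067), after quantile normalization (0.83, 0.057), or without Upf2 Trp53 Cre replicate 5 (1.02, 0.053), Upf2 Cre replicate 8 (0.94, 0.060) or Upf2 Cre replicate 9 (1.00, 0.053), by limma. Pfkp overlaps Pitrm1 on the opposite strand, with 748 identical transcript bases, and whether counting used the strand is not stated. Pitrm1, a mitochondrial peptidase gene, averaged 59.2 ± 13.6 TPM in Upf2 Trp53 Cre, 37.3 ± 15.6 in Upf2 Cre and 64.7 ± 11.3 in mock (SD, n = 6 each). It fell by 0.84 in Upf2 Cre against mock (adjusted p = 0.0062) and rose by 0.71 in Upf2 Trp53 Cre against Upf2 Cre (adjusted p = 0.036), the second not after either scaling. With the Pitrm1 values added to those of Pfkp, the difference in Upf2 Trp53 Cre against mock was 0.09 (limma adjusted p = 0.84). That in Upf2 Cre against mock was −0.71 (adjusted p = 0.018). Pitrm1 held 71.8% to 81.7% of this sum in Upf2 Trp53 Cre, 76.8% to 85.3% in Upf2 Cre and 83.6% to 93.2% in mock. The sum therefore largely repeats the Pitrm1 differences and is no test of Pfkp. How many Pitrm1 reads the Pfkp values hold was not tested.

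The middle and lower enzymes: the main Aldoa record had 976 to 1592 TPM in Upf2 Trp53 Cre, 1281 to 1722 in Upf2 Cre and 777 to 1471 in mock, with medians of 1172, 1574 and 1116. The ranges overlapped, with 4 Upf2 Cre libraries above every mock library. Aldoa rose by log2 0.50 ± 0.16 (SE) in Upf2 Cre against mock (by limma, adjusted p = 0.021). The call was lost without Upf2 Cre replicate 8 (0.46, adjusted p = 0.052) or mock replicate 5 (0.46, 0.051). In Upf2 Trp53 Cre the difference was 0.16 against mock (adjusted p = 0.58) and −0.34 against Upf2 Cre (adjusted p = 0.15).

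The upstream Aldoa record was low in mock and higher in both Cre groups. It ranged from 27.8 to 43.2 TPM with a median of 39.6 in Upf2 Trp53 Cre, from 14.9 to 40.5 with a median of 29.3 in Upf2 Cre, and from 5.63 to 13.7 with a median of 9.04 in mock. All 12 Cre libraries lay above all 6 mock libraries, and the Cre groups overlapped. The record rose by log2 1.97 ± 0.23 (SE) in Upf2 Trp53 Cre against mock (limma adjusted p = 7.4e-06), and by 1.42 ± 0.23 in Upf2 Cre against mock (adjusted p = 3.1e-04). Between the Cre groups the difference of 0.55 did not pass (adjusted p = 0.10), except without Upf2 Cre replicate 4 (0.67, adjusted p = 0.0496). The rise against mock in Upf2 Trp53 Cre was the single call among the members that also passed a test against a minimum change of 1.5-fold (adjusted p = 6.8e-04).

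A gene-level value does not say which of the 2 upstream transcripts changed. Both Aldoa records overlap Fam57b, a gene on the opposite strand, which averaged 8.43 ± 2.41 TPM in Upf2 Trp53 Cre, 9.02 ± 2.86 in Upf2 Cre and 5.84 ± 1.67 in mock (SD, n = 6 each). Fam57b did not pass the test, with differences of 0.54 in Upf2 Cre against mock (by limma, adjusted p = 0.074) and 0.47 in Upf2 Trp53 Cre against mock (adjusted p = 0.23). The upstream record also overlaps Gm44856 on the opposite strand, whose values were not looked at. The part of either gene in the values of the upstream record was not tested.

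Gapdh (chromosome 6, 125161715 to 125166467), often used as a reference gene, had 2669 to 3800 TPM in Upf2 Trp53 Cre, 2627 to 3592 in Upf2 Cre and 2422 to 3895 in mock, so that the 3 ranges nearly coincided. Its log2 difference was 0.08 in Upf2 Cre against mock (95% interval −0.24 to 0.39), 0.06 in Upf2 Trp53 Cre against mock (−0.26 to 0.37) and −0.02 between the Cre groups (−0.34 to 0.30). Gapdh matched 260 other genes of the annotation at 90% identity or more over at least 200 bases, most of them processed pseudogenes, and these together held 4.36% to 5.70% of the summed level of Gapdh and these genes.

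Eno1 (chromosome 4, 150236721 to 150248879) had medians of 1463, 1684 and 1561 TPM in Upf2 Trp53 Cre, Upf2 Cre and mock, and Pkm (chromosome 9, 59656368 to 59679375) medians of 1364, 1562 and 1213 TPM. Their ranges overlapped in every pair, and the library numbered 3 was the lowest of its group for both genes in all 3 groups. Eno1 passed no test, with differences of 0.17, −0.03 and −0.20 in the 3 comparisons in the order above (limma adjusted p = 0.60, 0.96 and 0.57). Pkm had differences of 0.30, 0.19 and −0.10 (adjusted p = 0.20, 0.56 and 0.70), and its first passed after quantile normalization (0.52, adjusted p = 0.036).

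Pgk1 (chromosome X, 106187100 to 106203699), the first ATP-yielding step, whose promoter window is printed above, was low in Upf2 Cre. It had 816 to 1659 TPM with a median of 1342 in Upf2 Trp53 Cre, 410 to 1497 with a median of 489 in Upf2 Cre, and 1296 to 1839 with a median of 1600 in mock. In Upf2 Cre 5 libraries lay at 410 to 689 TPM, below every library of both other groups, and replicate 3 alone lay at 1497 TPM. Pgk1 fell by 1.41 ± 0.26 (SE) on the log2 scale in Upf2 Cre against mock (by limma, adjusted p = 9.0e-04) and rose by 1.11 ± 0.26 in Upf2 Trp53 Cre against Upf2 Cre (adjusted p = 0.014). Against mock, Upf2 Trp53 Cre differed by −0.29 (adjusted p = 0.52).

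The Pgk1 rise between the Cre groups did not pass after median-ratio scaling (0.83, limma adjusted p = 0.057). Without the libraries numbered 3, the fall against mock was −1.73 (adjusted p = 3.9e-06) and the rise 1.34 (adjusted p = 1.3e-04). Set against Gapdh within each library, Pgk1 had a median ratio of TPM of 0.464 in Upf2 Trp53 Cre, 0.174 in Upf2 Cre and 0.543 in mock. The lowest mock ratio was 0.458, and the Upf2 Cre ratios ran from 0.118 to 0.562, replicate 3 being the highest.

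Pyruvate's fate: Ldha (chromosome 7, 46841475 to 46855627) had 598 to 870 TPM with a median of 646 in Upf2 Trp53 Cre, 213 to 974 with a median of 353 in Upf2 Cre, and 254 to 1170 with a median of 915 in mock. The libraries numbered 3 reversed the order of the 2 singly floxed groups, with 974 TPM in Upf2 Cre and 254 TPM in mock. Ldha fell by 0.97 ± 0.35 (SE) on the log2 scale in Upf2 Cre against mock (by limma, adjusted p = 0.034), and its differences of −0.21 in Upf2 Trp53 Cre against mock and 0.76 against Upf2 Cre did not pass (adjusted p = 0.75 and 0.13).

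Without the libraries numbered 3, Ldha had 598 to 685 TPM in Upf2 Trp53 Cre, 213 to 580 in Upf2 Cre and 809 to 1170 in mock. These 3 groups of 5 formed separate ranges. The libraries left out, a choice made after seeing the data, were those whose values crossed them, so the separation is no test. The share of all genes that do so was not counted. Ldha then fell by 1.55 in Upf2 Cre against mock (by limma, adjusted p = 1.6e-05), fell by 0.61 in Upf2 Trp53 Cre against mock (adjusted p = 0.039) and rose by 0.94 in Upf2 Trp53 Cre against Upf2 Cre (adjusted p = 0.0026). Leaving out Upf2 Cre replicate 3 alone gave 1.02 between the Cre groups (adjusted p = 0.019). With replicates 3 kept, the fall against mock did not pass without any one of Upf2 Cre replicates 5, 6, 8 and 9 or mock replicates 4, 5, 6, 8 and 9, at −0.96 to −0.79 (adjusted p = 0.052 to 0.086). It did not pass either without the filter on low values (adjusted p = 0.086), after median-ratio scaling (−0.85, 0.062) or with the 2 groups fitted alone (0.073).

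The median ratio of Ldha to Pkm TPM was 0.468 in Upf2 Trp53 Cre, 0.247 in Upf2 Cre and 0.712 in mock. Ldhb, the other main lactate dehydrogenase subunit gene, fell by 0.67 in Upf2 Cre against mock (by limma, adjusted p = 0.028), but not after median-ratio scaling (−0.55, 0.075) or without the libraries numbered 3 (−0.55, 0.050). The ratio of Ldha to Ldhb had medians of 1.33, 0.787 and 1.24 in Upf2 Trp53 Cre, Upf2 Cre and mock, with overlapping ranges.

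Pdk1 (chromosome 2, 71873224 to 71903858) was the lowest member in both Cre groups. It had 1.18 to 12.8 TPM with a median of 3.24 in Upf2 Trp53 Cre, 0.913 to 8.64 with a median of 2.02 in Upf2 Cre, and 3.59 to 23.0 with a median of 7.52 in mock. The highest value of both Cre groups was their library numbered 3, and the others stayed at or below 3.86 TPM, close to the lowest mock library. Pdk1 fell in Upf2 Cre to 0.354 of its mock level, on a TPM + 1 scale that understates changes of low genes (95% interval of the log2 difference −2.39 to −0.60, limma adjusted p = 0.011).

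In Upf2 Trp53 Cre against mock the Pdk1 difference of −1.02 did not pass (limma adjusted p = 0.14), and without Upf2 Trp53 Cre replicate 3 it was −1.34 (adjusted p = 0.030). Without all libraries numbered 3 it was −1.85 in Upf2 Cre (adjusted p = 2.6e-04) and −1.38 in Upf2 Trp53 Cre (adjusted p = 0.0071), each against mock. Between the Cre groups Pdk1 differed by 0.47 (adjusted p = 0.43).

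Ccnb1, a mitotic cyclin gene chosen after its values were seen, had medians of 144 TPM in Upf2 Trp53 Cre, 39.2 in Upf2 Cre and 233 in mock, and fell by 2.02 in Upf2 Cre against mock (by limma, adjusted p = 8.7e-04). In Upf2 Cre replicate 3, where Pgk1, Ldha and Pdk1 were high, Ccnb1 was at 178 TPM, against 24.1 to 58.9 TPM in the other 5 libraries. In Upf2 Trp53 Cre replicate 3, with high Ldha and Pdk1, it was at 191 TPM, against 72.8 to 173 TPM. In mock replicate 3, where Ldha was lowest, it was at 158 TPM, within the 101 to 269 TPM of the other mock libraries. Cdkn1a, the p53 target that encodes p21, followed no single direction in these libraries. It was at 127 TPM in Upf2 Trp53 Cre replicate 3, against 37.5 to 55.6 TPM in the rest of the group, at 489 TPM in Upf2 Cre replicate 3, against 674 to 1575 TPM, and at 98.3 TPM in mock replicate 3, against 171 to 331 TPM. Of 10 tested radial glia markers, 6 fell in Upf2 Cre against mock, beside 24.2% of all genes, and none rose. Median-ratio scaling left 4 that fell and 1 that rose, and quantile normalization 4 that fell. With the libraries numbered 3 left out, 7 fell and 2 rose, beside 33.8% and 25.9% of all genes. Of 7 astrocyte markers 4 fell, beside 24.2% of all genes, and none rose, also after either scaling. Without the libraries numbered 3, 4 fell and 1 rose. The astrocyte markers did not fall in sum, with medians of 671 TPM in Upf2 Cre and 638 in mock. The part of these genes in the results was not tested, and in these bulk samples fewer cells of a type and less RNA per cell cannot be told apart.

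Of the 11 records, 4 varied closely together from library to library. The deviations of log2(TPM + 1) from the group means were correlated between genes as a description, since all genes of a library share its TPM total. Aldoa, Gapdh, Eno1 and Pkm had Pearson r of 0.85 to 0.94 with each other over 18 libraries. Without the libraries numbered 3 these were 0.92 to 0.96 over 15. Pgk1, the enzyme between Gapdh and Eno1 in the pathway, had r of −0.14 with Gapdh and −0.07 with Eno1. Without the libraries numbered 3 these were 0.09 and 0.13. Hk2 and Ldha had r of 0.87, or 0.73 without the libraries numbered 3, and Pfkp and Pgk1 had 0.77, or 0.47. Slc2a1 and Eno1 had 0.82, or 0.43 without them.

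**Figure D4:**
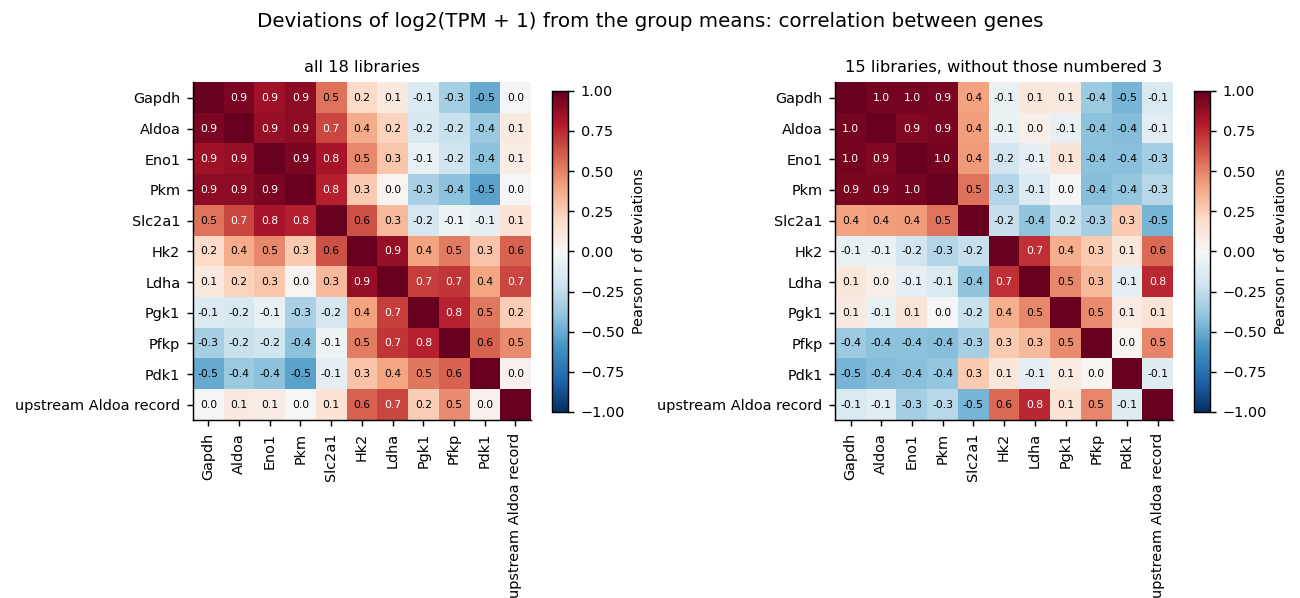
Pearson r between genes of the deviations of log2(TPM + 1) from the group means, over all 18 libraries (left) and over 15 without those numbered 3 (right). Gapdh, Aldoa, Eno1 and Pkm form the dark red block at the top left, with r of at least 0.85 in both, and Pgk1 and Ldha lie outside it.

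Other genes of glucose metabolism were taken from lists written from general knowledge. Of 15 tested isoforms and other enzymes of glycolysis, 4 were higher and 3 lower past the test in Upf2 Cre than in mock, 3 higher and 1 lower in Upf2 Trp53 Cre than in mock, and 2 rose between the Cre groups. Between the Cre groups 0 rose and 1 fell after median-ratio scaling, 0 rose and 2 fell after quantile normalization, and 3 rose and 3 fell without the libraries numbered 3, so the direction there was not stable. Among all genes 16.5% rose and 24.2% fell in the first comparison, 10.4% and 1.09% in the second, and 11.8% and 2.46% in the third. Eno2, the neuron-type enolase, had 3.62 ± 1.27 TPM in Upf2 Trp53 Cre, 5.77 ± 1.74 in Upf2 Cre and 1.63 ± 0.861 in mock (SD, n = 6 each), and rose by 1.37 in Upf2 Cre against mock (by limma, adjusted p = 3.0e-04). Bpgm, which makes 2,3-bisphosphoglycerate from the product of Gapdh, fell by 1.08 in Upf2 Cre against mock (adjusted p = 5.3e-04). Slc2a3, the glucose transporter GLUT3, rose by 0.85 in Upf2 Trp53 Cre against mock (adjusted p = 5.6e-04), where Slc2a1 did not pass; whether the 2 differ was not tested. Hkdc1, a hexokinase-domain gene, rose by 1.01 there (adjusted p = 6.4e-04), although it averaged 1.34 TPM in Upf2 Trp53 Cre and 0.148 in mock.

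Paralogs did not always go with their member. Hk1 rose by 0.63 in Upf2 Cre against mock (by limma, adjusted p = 0.0095), Aldoc fell by 0.79 (0.026, and 0.071 after median-ratio scaling), and Pfkl fell by 0.74 in Upf2 Trp53 Cre against mock (0.026), where Pfkp rose. The ratio of Aldoa to Aldoc TPM had medians of 2.35 in Upf2 Trp53 Cre, 4.41 in Upf2 Cre and 1.82 in mock. Every Upf2 Cre library, at 3.07 or more, lay above every mock library, at 2.53 or less. Ratios were not tested, and the share of gene pairs that separate was not counted. Hk2 to Hk1 overlapped, at 0.154 to 0.499 in Upf2 Cre and 0.0828 to 0.626 in mock. So did Pfkp to Pfkl, at 0.0907 to 0.384 and 0.0992 to 0.224. Pfkm, Eno1b and Pdk4 passed in no comparison, with or without the libraries numbered 3. Eno3, the muscle-type enolase, differed from mock by 0.73 in Upf2 Trp53 Cre (adjusted p = 0.057) and by 0.33 in Upf2 Cre (0.27). Without those libraries it rose, by 0.94 (2.5e-04) and by 0.57 (0.0041). Pdk2 rose by 1.07 in Upf2 Cre against mock (adjusted p = 0.0497, and 0.052 after quantile normalization), while Pdk3 fell by 1.03 (3.8e-04).

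Of 6 regulators of glycolysis, 1 rose in each comparison, beside 16.5%, 10.4% and 11.8% of all genes, and none fell. Without the libraries numbered 3, 1 rose in Upf2 Cre against mock and 1 fell, beside 25.9% and 33.8% of all genes. In Upf2 Trp53 Cre 3 then rose against mock, beside 18.9%, and 4 rose against Upf2 Cre, beside 28.2%. Txnip, an inhibitor of glucose uptake, was among these, at 1.92 against mock (limma adjusted p = 3.5e-05) and 1.69 against Upf2 Cre (1.9e-04), while with all libraries its differences of 1.32 and 1.49 did not pass (0.23 and 0.12). Pfkfb3, whose product makes the activator of phosphofructokinase, had 51.3 to 124 TPM in Upf2 Trp53 Cre, 27.2 to 46.3 in Upf2 Cre and 17.0 to 56.7 in mock. Its Upf2 Trp53 Cre libraries lay above every Upf2 Cre library, where 2.72% of all genes did not overlap in either direction, and overlapped mock. Pfkfb3 rose by 1.51 against mock (limma adjusted p = 7.3e-04) and by 1.20 against Upf2 Cre (adjusted p = 0.011). Pfkfb4 of the same family rose by 0.61 in Upf2 Cre against mock (adjusted p = 0.035).

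Pyruvate dehydrogenase turns pyruvate into acetyl-CoA in the mitochondrion. Of 11 tested genes of the complex and its kinases and phosphatases, 8 fell in Upf2 Cre against mock and 1 rose, where 24.2% and 16.5% of all genes did, with a median of −0.69 beside −0.12 over all genes, and after either scaling 6 fell. Pdha1, the catalytic subunit, had 151 ± 53.8 TPM in Upf2 Trp53 Cre, 99.2 ± 59.1 in Upf2 Cre and 226 ± 74.7 in mock (SD, n = 6 each). It fell by 1.25 in Upf2 Cre against mock (by limma, adjusted p = 0.0050). By limma none of the 11 passed in Upf2 Trp53 Cre against mock, while 3 fell without the libraries numbered 3 and 1 fell after either scaling.

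Of 16 citric acid cycle genes, 7 fell in Upf2 Cre against mock and none rose, with a median of −0.64 beside −0.12 over all genes, where 24.2% of all genes fell. Again 7 fell after either scaling, and 11 fell without the libraries numbered 3, beside 33.8% of all genes. Sdha, the flavoprotein of succinate dehydrogenase, averaged 345 ± 63.7 TPM in Upf2 Trp53 Cre, 232 ± 62.3 in Upf2 Cre and 429 ± 52.9 in mock (SD, n = 6 each), and fell by 0.92 (limma adjusted p = 0.0011). Suclg1, Sdhb and Idh3b fell by 1.17, 0.78 and 0.79. Between the Cre groups 3 of the 16 rose, Idh3b, Sdha and Suclg1, beside 11.8% of all genes. None rose there after median-ratio scaling and 1 after quantile normalization. Without the libraries numbered 3, 7 rose, beside 28.2% of all genes. In Upf2 Trp53 Cre against mock none of the 16 passed by limma, while 3 fell without those libraries, beside 4.5%. Slc16a1, the lactate transporter MCT1, fell by 1.17 in Upf2 Cre against mock (adjusted p = 0.013), and so did Mpc2, a subunit of the mitochondrial pyruvate carrier, by 0.71 (0.022).

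In the pentose phosphate pathway, which branches off after hexokinase, 1 of 8 genes fell in Upf2 Cre against mock, beside 24.2% of all genes. This was Taldo1, a transaldolase gene, at −0.98 (limma adjusted p = 0.0012). Without the libraries numbered 3, 3 fell, Taldo1, Rpia and Rpe, and 2 rose, Pgls and H6pd, beside 33.8% and 25.9% of all genes. Of 4 tested gluconeogenesis genes, Fbp1, which opposes phosphofructokinase, fell in both comparisons with mock, by 1.55 in Upf2 Cre (adjusted p = 3.1e-04) and by 1.36 in Upf2 Trp53 Cre (adjusted p = 0.0010). Pck2, the mitochondrial form of phosphoenolpyruvate carboxykinase, rose by 1.25 in Upf2 Trp53 Cre against mock (adjusted p = 0.0068), and G6pc3 rose by 0.85 in Upf2 Cre against mock (0.020).

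Known HIF-1 targets other than the members moved in both directions. Of 18 tested, 7 fell and 2 rose in Upf2 Cre against mock, beside 24.2% and 16.5% of all genes. Pfkfb4, also counted among the regulators above, was 1 of these 2. In Upf2 Trp53 Cre against mock 1 rose, beside 10.4%, and between the Cre groups 3 rose and 1 fell, beside 11.8% and 2.46%. Without the libraries numbered 3, 12 fell and 2 rose, beside 33.8% and 25.9%, then 3 fell and 2 rose, beside 4.5% and 18.9%. Between the Cre groups 7 then rose and 1 fell, beside 28.2% and 8.81%. Between the Cre groups 1 rose and 1 fell after either scaling. Ndrg1, a stress-response gene, had 10.2 ± 4.85 TPM in Upf2 Trp53 Cre, 2.21 ± 1.05 in Upf2 Cre and 1.02 ± 1.24 in mock (SD, n = 6 each). Its rise in Upf2 Trp53 Cre was 2.52 against mock (limma adjusted p = 1.2e-05) and 1.75 against Upf2 Cre (adjusted p = 0.0016). Bnip3l, a mitophagy gene, fell by 1.19 in Upf2 Cre against mock (adjusted p = 0.014), and Egln1, a prolyl hydroxylase that marks HIF for degradation, fell by 0.65 (0.0094). Among 9 HIF and Myc factors, Hif1a fell by 0.82 (adjusted p = 0.030) and Egln2 rose by 0.84 (7.3e-04) in Upf2 Cre against mock.

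**Figure D5:**
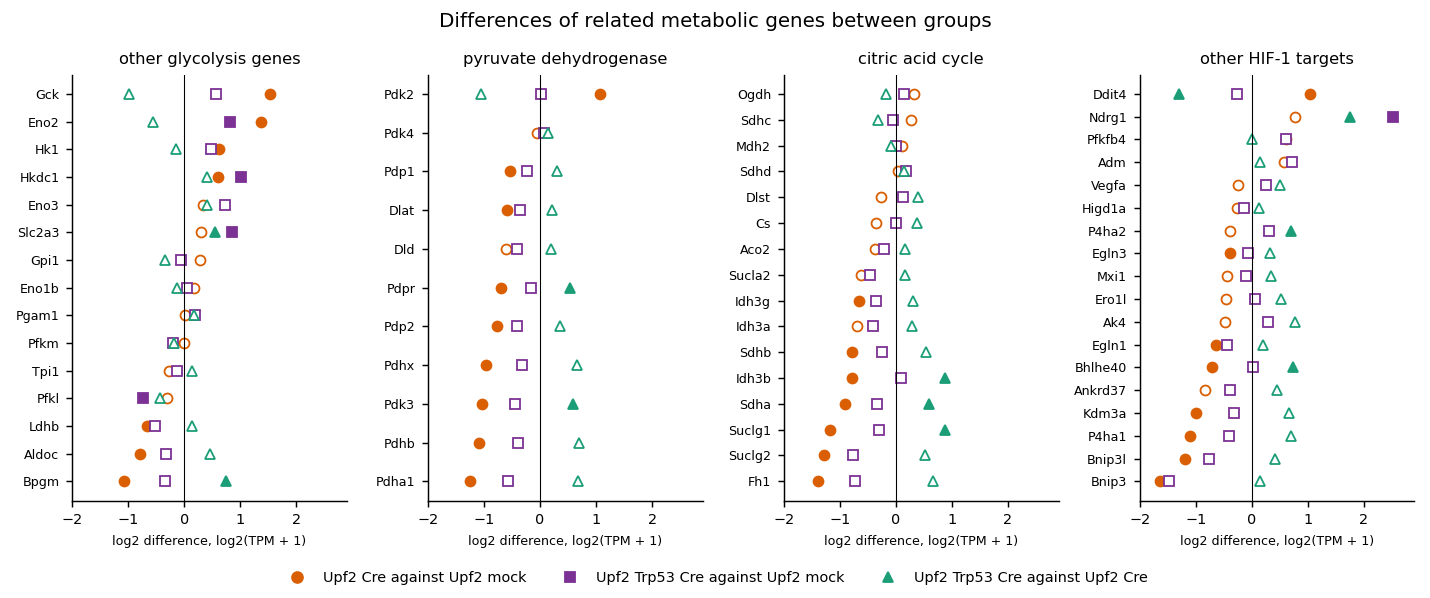
Log2 differences of log2(TPM + 1) of genes on 4 related lists, sorted by Upf2 Cre against mock; circles are Upf2 Cre against mock, squares Upf2 Trp53 Cre against mock and triangles Upf2 Trp53 Cre against Upf2 Cre, and filled symbols passed the test (the filled Pfkfb4 circle lies under its square). In the pyruvate dehydrogenase and citric acid cycle panels 8 of 11 and 7 of 16 circles are filled and left of 0, and no square is filled.

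The genes most like the members as a whole were sought among 10651 tested genes with a mean of at least 5 TPM. Likeness was Pearson's r over the 18 libraries with the mean of the members' standardised log2(TPM + 1). The highest were Lrrc75a at 0.92, Tcf19 at 0.91, Tubb2a at 0.91, Got1 at 0.90 and Tubb6 at 0.90. The lowest were Ednrb at −0.87, Sesn3 at −0.85, Miat at −0.83, Pdcd4 at −0.82 and Sox4 at −0.82. The members' mean was lowest in the mock library numbered 3, at −1.75, against −0.40 to 0.50 in the other 17 libraries. The ranking rested on the libraries numbered 3: over the 15 others, 0 of the 5 highest and 1 of the 5 lowest kept a place among the 5. Lrrc75a then had r of 0.83, Tcf19 0.67, Tubb2a 0.62, Got1 0.55 and Tubb6 0.52. Pdcd4 had −0.71, Ednrb −0.57, Sox4 −0.30, Miat −0.23 and Sesn3 −0.21.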

How the data were processed

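RNA-seq of 18 libraries was used as 1 table of TPM, which the authors deposited; per the submitters' processing notes, reads were aligned with STAR to mm10. The quantifier, the annotation and the use of strand in counting are not given in the sources used here. Per the labels' protocols, cells were harvested at 72 h, virus medium was removed after 14 h, and RNA integrity was at least 9. Of 55573 record IDs, 55094 matched GENCODE M21 with their version and 55394 without. The table held 0 other columns of values.

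Values were tested as log2(TPM + 1) for records reaching 1 TPM in 6 or more libraries, with limma 3.58.1 in R 4.3.3: 3 group means over all 18 libraries, a mean-variance trend, and Benjamini-Hochberg adjustment over all 15216 tested records, with a threshold of 0.05. The fit was tested on simulated data. Python 3.11.15 and Matplotlib 3.10.9 drew the figures, and BLAST 2.17.0 found copies with at least 90% identity over 200 bases. Promoters are RefSeq windows on GRCm38.p6.

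Members and lists were chosen with earlier results of these data known. The design counted 10 members, and the 10 symbols gave 11 records. Named besides the members were the up to 4 genes per list lowest in adjusted p, the members' paralogs, Upf2, Trp53, and the 5 genes most and the 5 least like the members. Ccnb1, Cdkn1a, Olig2, Rpia, Gm23935 and the overlapping Pitrm1 and Fam57b lie outside this rule and were chosen after their values were seen. Alternatives were another pseudocount, 2 other filters, 2 scalings, no trend, a minimum change of 1.5-fold, a replicate block, the compared groups alone, copies added to their member, and each library left out. Leaving out the 3 libraries numbered 3 was added after seeing the data.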

Additional observations from a re-analysis of the deposited data

Results flagged for a closer look

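In 6 of 33 groups of 6 libraries, 1 library lay far from the rest for a member: its gap to the nearest library, as a share of the group's range, exceeded Dixon's 95% critical value, which chance gives in about 5% of groups. In 5 of the 6 this was the library numbered 3. In Upf2 Cre replicate 3, Pfkp was at 19.7 TPM, against 4.69 to 8.11 TPM in the other libraries of the group. Pgk1 was at 1497 TPM in the same library, against 410 to 689 TPM, and Pdk1 at 8.64 TPM, against 0.913 to 2.63 TPM. In Upf2 Trp53 Cre replicate 3, Ldha was at 870 TPM, against 598 to 685 TPM, and Pdk1 at 12.8 TPM, against 1.18 to 3.86 TPM. In mock replicate 6, Pdk1 was at 23.0 TPM, against 3.59 to 9.96 TPM in the other mock libraries.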

How the results depend on the processing

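Of the members, 2 rose between the Cre groups on deposited TPM, 0 after median-ratio scaling and 1 after quantile normalization. Tested against a minimum change of 1.5-fold, 0 rose in Upf2 Cre against mock and 0 fell, 1 rose in Upf2 Trp53 Cre against mock and 0 rose between the Cre groups. With copies added to their member, 1 rose in Upf2 Trp53 Cre against mock, and Pfkp turned to −0.71 for Upf2 Cre against mock (by limma, adjusted p = 0.018). The only gene added to Pfkp was the overlapping Pitrm1, which held most of the sum. Without the libraries numbered 3, 2 fell against mock in Upf2 Trp53 Cre, and 1 fell between the Cre groups. Leaving out each library in turn gave 2 to 3 rising and 2 to 3 falling in Upf2 Cre against mock, 2 rising and 0 to 1 falling in Upf2 Trp53 Cre against mock, and 1 to 3 rising and 0 falling between the Cre groups. The cause of these shifts was not tested. The labels do not say what same-numbered libraries share, and the main fit leaves the number out. Deviations of same-numbered libraries correlated at −0.08 to 0.58, −0.17 to 0.53 and −0.02 to 0.74 in the 3 comparisons. They were over 0.1 in 4, 5 and 5 of 6 pairs, and highest with their own number in 2, 3 and 3 of 6. With the replicate block the single member call that changed was Pkm in Upf2 Cre against mock (0.30, by limma, adjusted p = 0.046), so that 4 members rose there. Of the 6 regulators of glycolysis, 3 rose with the block in both comparisons of Upf2 Trp53 Cre. Over all 15216 tested genes the block gave 3363 rising and 4691 falling genes, then 2532 and 438, then 3586 and 859. On deposited TPM these were 2506 and 3686, 1586 and 166, 1791 and 374. They were 3079 and 3182, 971 and 480, 301 and 727 after median-ratio scaling, 2982 and 3210, 1081 and 478, 539 and 592 after quantile normalization, 186 and 29, 211 and 24, 41 and 68 against 1.5-fold, and 3854 and 5041, 2820 and 670, 4200 and 1312 without the libraries numbered 3. Leaving out 1 library gave 427 to 4128 genes rising between the Cre groups. Over named genes and alternatives, 4610 values kept their side of the threshold, 258 lost and 126 gained significance. A change of sign was counted as a reversal only where a fit passed the test, which held for 1 value. Sign changes between values that did not pass are among the 4610. Hk2 in Upf2 Cre against mock is an example, at 0.12, and −0.40 without the libraries numbered 3.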
